A study of Homo sapiens with 5 samples.

Results

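The transforming growth factor beta (TGF-β) pathway was examined through 9 genes: the ligand genes TGFB1, TGFB2, TGFB3, INHBA and GDF15, the receptor genes TGFBR1 and TGFBR2, and the SMAD genes SMAD3 and SMAD7. They were chosen by symbol, and all of them were found among the 26485 genes of the count table. RNA-seq was performed on poly-A RNA of RPE1 cells, a cell line derived from human retinal pigment epithelium, with the genotype labelled WT in every library. Of the 5 libraries, 2 came from cells given DMSO, the solvent, 2 from cells given 0.2 μM doxorubicin and 1 from cells given 0.34 μM doxorubicin, all for 18 h. Doxorubicin is an anthracycline that intercalates into DNA and traps topoisomerase II on it. These doses are those of the sample titles, while the treatment description in the labels gives both as far higher micromolar values. Following the design of the study, the 3 doxorubicin libraries were compared as a single group with the 2 DMSO libraries.

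TGF-β family ligands are secreted dimers, and TGF-β itself is released in a latent complex that has to be opened before it can act. An active ligand brings together type II and type I serine/threonine kinase receptors, the type I receptor phosphorylates SMAD2 and SMAD3, and these enter the nucleus with SMAD4 and regulate target genes, among them SMAD7, which feeds back as an inhibitor. In the retinal pigment epithelium the pathway is best known for driving a change toward contractile, matrix-producing mesenchymal cells.

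The libraries held between 23773061 and 36725345 counts on genes, so that 1 count was worth between 0.0276 and 0.0416 CPM, the counts per 1000000 counts of a library. CPM values are scaled by the trimmed mean of M-values (TMM) throughout, and the median log2 fold change of all 14187 genes tested was 0.013. The genes that mark a doxorubicin response were far apart between the groups in edgeR's quasi-likelihood test: CDKN1A rose by 3.39 and MDM2 by 2.19 on the log2 scale, while PLK1 and CCNB1, genes of mitosis, fell, with adjusted p between 0.000136 and 0.00246. Among 11 retinal pigment epithelium markers, 7 passed the filter on low counts. RPE65, RLBP1, TYR and TTR had fewer than 10 counts in every library. The transcription factors MITF (29.1 to 56.7 CPM) and OTX2 (23.5 to 29.4 CPM) were expressed. PMEL had 7 and 5 counts with DMSO against 22, 32 and 46 with the drug, and BEST1 had 26 and 14 against 86, 30 and 142. SERPINF1 had a negative log2 fold change (-1.04) with overlapping groups, at 11 and 29 counts against 4, 15 and 13. KRT8 and KRT18 made up most of the list's summed level of 638 to 784 CPM in DMSO and 1051 to 1249 CPM in doxorubicin. Of 13 markers of other cell types 5 passed the filter. Their summed level was 286 and 443 CPM in DMSO and 271 to 300.2 CPM in doxorubicin, nearly all of it CD68 and TUBB3. The leukocyte marker PTPRC was higher in doxorubicin (5 and 7 counts against 25, 53 and 72). CD68, the other leukocyte marker, overlapped between the groups, at 100 and 90.9 CPM in DMSO and 82.6, 108 and 76.5 CPM in doxorubicin. Of the 5 tested, 1 had a positive and 4 a negative fold change. The endothelial marker CDH5 had 56 and 69 counts in the libraries numbered 2 and 2, 4 and 5 in the others. EPCAM, CDH1, KRT5, DES, RBFOX3 and ALB did not exceed 4 counts in any library, and GFAP did not exceed 9. Unlike DES, the muscle marker MYH11 passed the filter. Its level was lower in every doxorubicin library (0.665 to 1.30 CPM) than with the solvent (1.79 and 2.19 CPM). The log2 fold change of MYH11 was -1.05 (edgeR adjusted p = 0.129). The part of these markers in the results was not tested.

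The libraries of each treatment were not close copies. The median absolute log2 difference between genes was 0.365 between the DMSO libraries and 0.293 between those of 0.2 μM, but 0.113 between the 0.34 μM library and replicate 1 of 0.2 μM. The study calls the libraries biological replicates, and nothing in the labels says how the cultures were separated, so p-values measure the spread between these samples, which may be partly technical.

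The 5 ligand genes carry most of what follows, so the 250 bases upstream of the first listed start of each are shown 5′ to 3′ in the direction of transcription, from RefSeq on GRCh38.p14. They lie at chr19:41353923-41354172 (minus strand) for TGFB1, chr1:218345086-218345335 (plus) for TGFB2, chr14:75983012-75983261 (minus) for TGFB3, chr7:41703091-41703340 (minus) for INHBA and chr19:18385908-18386157 (plus) for GDF15. The INHBA window lies inside the annotated span of the gene (chr7:41685114-41705406), whose 5′ end is farther upstream, so its positions refer to the listed start alone. Capitals mark matches on either strand. They are matches to CAGAC, the core of the SMAD-binding element, to TATAAA, the core of a TATA box, and to the 10-base consensus of a p53 half-site.
TGFB1: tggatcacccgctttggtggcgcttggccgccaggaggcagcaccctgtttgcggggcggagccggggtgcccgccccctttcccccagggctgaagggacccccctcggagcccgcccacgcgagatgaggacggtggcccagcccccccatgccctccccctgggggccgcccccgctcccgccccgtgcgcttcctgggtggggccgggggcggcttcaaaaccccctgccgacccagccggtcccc
TGFB2: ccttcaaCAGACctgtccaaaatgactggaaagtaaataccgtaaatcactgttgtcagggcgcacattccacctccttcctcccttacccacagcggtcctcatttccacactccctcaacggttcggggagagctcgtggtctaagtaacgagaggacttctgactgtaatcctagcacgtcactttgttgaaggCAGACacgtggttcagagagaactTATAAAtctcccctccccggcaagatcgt
TGFB3: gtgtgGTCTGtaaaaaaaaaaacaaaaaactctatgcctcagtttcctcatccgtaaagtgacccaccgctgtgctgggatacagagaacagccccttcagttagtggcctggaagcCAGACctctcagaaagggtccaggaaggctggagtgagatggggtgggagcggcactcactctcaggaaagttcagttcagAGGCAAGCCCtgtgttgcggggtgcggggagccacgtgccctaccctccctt
INHBA: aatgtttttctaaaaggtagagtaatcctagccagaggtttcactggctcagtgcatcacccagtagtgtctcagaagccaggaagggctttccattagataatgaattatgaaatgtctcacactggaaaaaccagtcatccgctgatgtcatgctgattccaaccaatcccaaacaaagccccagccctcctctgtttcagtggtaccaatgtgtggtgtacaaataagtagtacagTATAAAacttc
GDF15: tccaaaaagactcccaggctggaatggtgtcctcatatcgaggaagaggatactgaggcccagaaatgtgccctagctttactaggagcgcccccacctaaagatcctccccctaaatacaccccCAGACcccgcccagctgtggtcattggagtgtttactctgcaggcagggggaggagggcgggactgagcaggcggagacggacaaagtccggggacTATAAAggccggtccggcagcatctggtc
The TGFB1 window was 76.8% G and C and held none of the motifs. TATAAA began at -29 from the start in both TGFB2 and GDF15 and at -11 in INHBA, in windows of 50.4%, 58.4% and 42.8% G and C. CAGAC or its reverse complement began at -243 and -53 from the start in TGFB2, at -245 and -133 in TGFB3 and at -125 in GDF15. The p53 half-site match in TGFB3 began at -52. Over all 9 genes, which all matched a RefSeq promoter by symbol, 5 windows held CAGAC and 3 held TATAAA. Of all 35116 promoter windows of this length, 38% and 10.7% did, and the p53 half-site consensus occurred in 5.57%. The SMAD palindrome GTCTAGAC (0.182% of windows) and the AP-1 site TGANTCA (6.57%) were in none of the 9 windows. None of these motifs contains another. A match is only a run of letters, and binding was not measured here.

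No member passed the main test, INHBA and GDF15 stood highest over DMSO, TGFB1 and TGFB3 lay below it, and TGFB2 differed more between the DMSO libraries than between the treatments. At the threshold of 0.01 on the adjusted p, edgeR's quasi-likelihood test called 0 of the 9 genes higher and 0 lower. Among all genes tested it called 1.29% higher and 2.73% lower. At an unadjusted p under 0.05 there were 5 members, 3 higher and 2 lower, in a table where 30.8% of all genes reached that level. DESeq2, the tool that the study used for this comparison, called INHBA and GDF15 higher and no member lower. Its background was 6.44% higher and 7.82% lower, and limma voom called none. All 3 doxorubicin libraries lay above both DMSO libraries for INHBA, GDF15 and TGFBR1, and below both for TGFB1, TGFB3 and TGFBR2, whereas 24.3% of all genes lay wholly above and 23.4% wholly below. In bulk RNA, fewer cells of a type and less RNA per cell cannot be told apart.

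**Figure D1:**
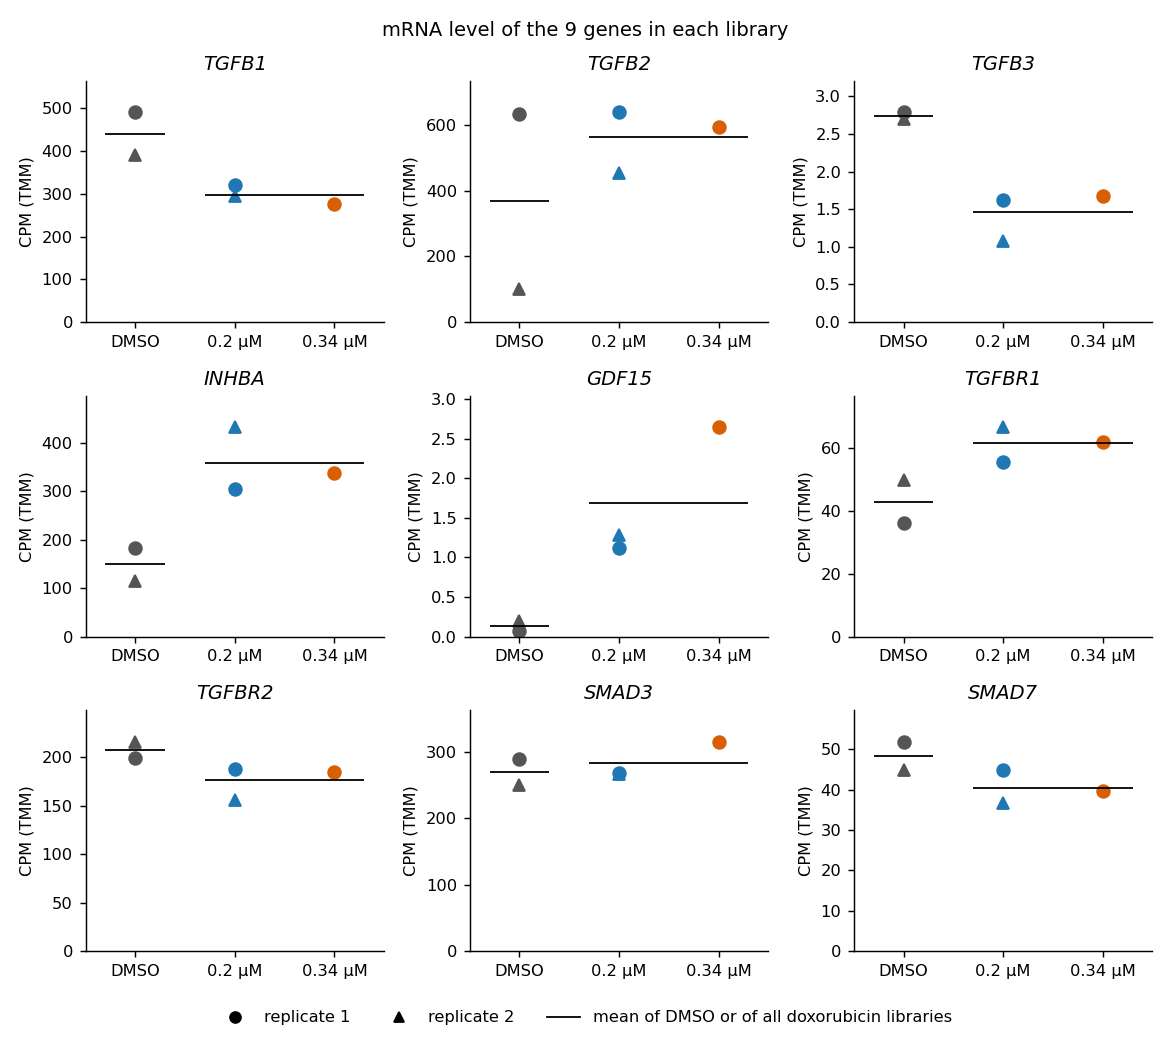
Level of each of the 9 genes in each library, in TMM-normalized CPM on linear axes from 0, with circles for replicate 1 (and for the only 0.34 μM library), triangles for replicate 2 and lines for the mean of the 2 DMSO or the 3 doxorubicin libraries. INHBA and GDF15 lie above DMSO in every doxorubicin library, TGFB1 and TGFB3 lie below it, and the DMSO libraries of TGFB2 lie at 633 and 102 CPM.

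TGFB1 (chr19:41330323-41353922), the most widely expressed TGF-β isoform, was at 490 and 391 CPM in DMSO, at 321 and 294 CPM in 0.2 μM and at 276 CPM in 0.34 μM doxorubicin. Every doxorubicin library was thus below both DMSO libraries. The mean was 440 ± 69.9 CPM (SD, n = 2) in DMSO and 297 ± 22.7 CPM (SD, n = 3) in doxorubicin. The log2 fold change of -0.57 (SE 0.17) had an adjusted p of 0.0680 in edgeR's quasi-likelihood test and 0.0149 in DESeq2, both short of the threshold. With the doses fitted apart, the log2 difference from DMSO was -0.52 for 0.2 μM and -0.68 for 0.34 μM, which had 1 library. The difference between the doses, -0.16, was smaller than its SE of 0.29.

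TGFB2 (chr1:218345336-218444619) encodes the predominant TGF-β isoform of the eye. Its DMSO libraries were at 633 and 102 CPM, those of 0.2 μM at 639 and 455 CPM, and that of 0.34 μM at 595 CPM. One DMSO library therefore sat among the doxorubicin libraries and the other far below all of them, a 6.23-fold gap that only 1.25% of genes exceeded. The means of 368 ± 376 CPM (SD, n = 2) and 563 ± 95.8 CPM (SD, n = 3) did not differ beyond that spread (log2 fold change 0.62, SE 0.66, adjusted p = 0.575 in edgeR). Between libraries of the same replicate number, 0.2 μM over DMSO was 1.01-fold for number 1 and 4.48-fold for number 2. The direction of TGFB2 depends on which DMSO library is used: without replicate 1 the log2 fold change was 2.46 (edgeR adjusted p = 0.0122), and without replicate 2 it was -0.19 (edgeR adjusted p = 0.627).

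TGFB3 (chr14:75958097-75983011), another TGF-β isoform, was barely expressed. It had 73 and 69 counts in DMSO, 42 and 26 in 0.2 μM and 61 in 0.34 μM doxorubicin, or 2.78, 2.70, 1.62, 1.08 and 1.68 CPM in that order. The DMSO libraries were nearly equal and all doxorubicin libraries were lower. With 2.74 ± 0.0581 CPM (SD, n = 2) in DMSO and 1.46 ± 0.331 CPM (SD, n = 3) in doxorubicin, the log2 fold change was -0.90 (SE 0.33), with an adjusted p of 0.123 in edgeR and 0.113 in DESeq2.

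INHBA (chr7:41685114-41705406) encodes the βA chain that dimerizes into activin A, a ligand that signals through SMAD2 and SMAD3 from its own receptors. It was at 183 and 116 CPM in DMSO, at 304 and 433 CPM in 0.2 μM and at 338 CPM in 0.34 μM doxorubicin. The lowest doxorubicin library exceeded the higher DMSO library, and the spread was wide on both sides. The mean was 150 ± 47.5 CPM (SD, n = 2) in DMSO and 358 ± 66.6 CPM (SD, n = 3) in doxorubicin, a 2.39-fold difference. The log2 fold change of 1.26 (SE 0.26) had an adjusted p of 0.0249 in edgeR, 0.0205 in limma voom and 5.48e-05 in DESeq2. Between libraries of the same number it was 1.66-fold for number 1 and 3.73-fold for number 2. Leaving out 1 library at a time put the log2 fold change between 0.95 and 1.62, positive each time and called in none of these fits.

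GDF15 (chr19:18386158-18389176) encodes a distant member of the family, a stress cytokine and known p53 target whose receptor is GFRAL with the co-receptor RET. It had 2 and 5 counts in DMSO, 29 and 31 in 0.2 μM and 96 in 0.34 μM doxorubicin, or 0.0763, 0.196, 1.12, 1.29 and 2.65 CPM. All doxorubicin libraries were well above both DMSO libraries, but the transcript stayed rare. Summed over libraries, 156 against 7 counts gave a ratio of 13.4 after scaling, with an exact 95% interval of 6.34 to 33.8 that covers counting error only. The fitted log2 fold change was 3.60 (SE 0.68), with an adjusted p of 0.0191 in edgeR, 0.0292 in limma voom and 0.000182 in DESeq2, and it stayed between 3.08 (without DMSO replicate 1) and 4.39 (without DMSO replicate 2) with any library left out. GFRAL had no counts in any library and RET had 0, 0, 1, 5 and 6.

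**Figure D2:**
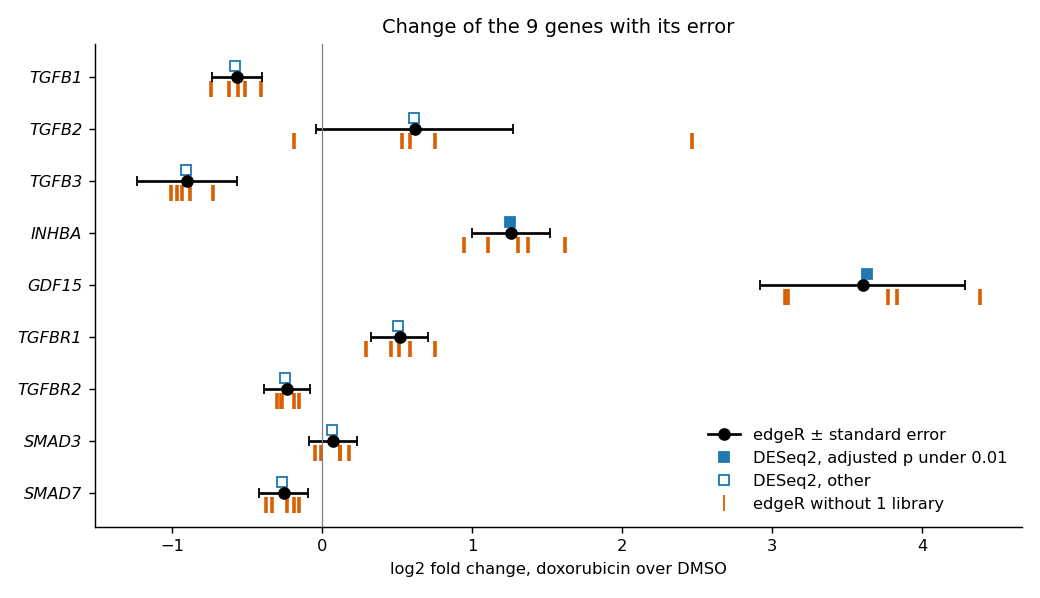
Log2 fold change of each of the 9 genes, doxorubicin over DMSO, from edgeR with its standard error (black), from DESeq2 (squares, filled where the adjusted p was under 0.01) and from edgeR with each library left out in turn (orange ticks). INHBA at 1.26 and GDF15 at 3.60 are the filled squares, and the ticks of TGFB2 run from -0.19 to 2.46.

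The receptor genes lay on opposite sides of DMSO. TGFBR1 (chr9:99103647-99154192), the type I receptor, was at 36.1 and 50.0 CPM in DMSO, at 55.8 and 66.8 CPM in 0.2 μM and at 62.2 CPM in 0.34 μM doxorubicin. Every doxorubicin library was higher than both controls. The means were 43.1 ± 9.80 CPM (SD, n = 2) and 61.6 ± 5.53 CPM (SD, n = 3), with a log2 fold change of 0.52 (SE 0.19) and an adjusted p of 0.122 in edgeR. TGFBR2 (chr3:30606356-30694142), the type II receptor that binds the ligand first, was at 199 and 216 CPM in DMSO and at 188, 156 and 185 CPM in doxorubicin. The groups did not overlap, though the highest doxorubicin library was close to the lower DMSO library. Its log2 fold change was -0.24 (SE 0.15), with an adjusted p of 0.345 in edgeR.

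Neither SMAD gene was called. SMAD3 (chr15:67065602-67195169), which carries the signal to the nucleus, was at 290 and 250 CPM in DMSO, at 268 and 267 CPM in 0.2 μM and at 315 CPM in 0.34 μM doxorubicin. The 0.34 μM library was the highest and both 0.2 μM libraries fell between the controls. Its log2 fold change of 0.07 (SE 0.16; edgeR adjusted p = 0.805) changed sign in 4 of 15 alternative analyses, so no direction can be given. SMAD7 (chr18:48919853-48950965), the inhibitory SMAD, was at 51.9 and 44.8 CPM in DMSO, at 44.9 and 36.8 CPM in 0.2 μM and at 39.6 CPM in 0.34 μM doxorubicin. One 0.2 μM library was level with the lower control and the others were below it. The log2 fold change was -0.26 (SE 0.16), with an adjusted p of 0.333 in edgeR.

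Levels can be compared between genes only per length of transcript, here as CPM per kilobase of the MANE Select transcript. In DMSO TGFB1 was highest at 158 ± 25.1 CPM per kilobase (SD, n = 2), followed by TGFB2 (108 and 17.3 in its 2 libraries), TGFBR2 (45.8 ± 2.65), SMAD3 (41.7 ± 4.36), INHBA (24.7 ± 7.86), SMAD7 (14.5 ± 1.50), TGFBR1 (6.63 ± 1.51), TGFB3 (0.800 ± 0.0169) and GDF15 (0.113 ± 0.0704). The libraries of TGFBR2 and SMAD3 overlapped, and those of TGFB2 reached from below TGFB1 to below both INHBA libraries (30.3 and 19.2). In doxorubicin TGFB1 (107 ± 8.18, SD, n = 3) and TGFB2 (96.0 ± 16.3) overlapped at the top, and INHBA came next at 59.2 ± 11.0 CPM per kilobase, above SMAD3 (43.8 ± 4.27) and TGFBR2 (38.9 ± 3.85), which overlapped again. SMAD7 (12.1 ± 1.24) and TGFBR1 (9.48 ± 0.852) were far lower. GDF15 (1.40 ± 0.696) was above TGFB3 (0.426 ± 0.0965), the reverse of their order in DMSO.

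Next, the doses were compared. The contrast of 0.34 with 0.2 μM rests on 1 library at the higher dose, whose spread was taken from the other conditions. edgeR called 0% of all genes and 0 of the 9 in this contrast, DESeq2 called 0 genes as well, and at an unadjusted p under 0.05 there were 22 genes in edgeR, 33 in DESeq2 and 0 members. The largest difference among the members was that of GDF15, which was 1.13 higher on the log2 scale at 0.34 μM (SE 0.65, unadjusted p = 0.126, adjusted p = 1.00 in edgeR). For TGFB3 it was 0.31 (SE 0.57), for SMAD3 0.24 (SE 0.27), and for the others between -0.16 and 0.12.

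The wider pathway was then described through 7 lists of 124 other genes, of which 94 passed the filter on low counts, with 8 of the rest at 0 in every library. edgeR called 2 of the 94 higher, of which FSTL3 is described here, and 0 lower, beside 1.29% and 2.73% of all genes, and 23 of them had an unadjusted p under 0.05, beside 30.8% of all genes. DESeq2 called 7 higher and 2 lower, beside 6.44% and 7.82% of all genes tested. The median log2 fold change of the 94 was 0.23. Their libraries lay wholly above DMSO in 28 genes and wholly below in 19, beside 24.3% and 23.4% of all genes.

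FSTL3 (chr19:676392-683385), a secreted glycoprotein that binds and blocks activin, was at 71.9 and 76.5 CPM in DMSO, at 149 and 185 CPM in 0.2 μM and at 153 CPM in 0.34 μM doxorubicin. Both groups were tight and did not overlap. It rose from 74.2 ± 3.24 CPM (SD, n = 2) to 163 ± 19.9 CPM (SD, n = 3), by 1.13 on the log2 scale (SE 0.16, edgeR adjusted p = 0.00772). Its adjusted p was 0.00751 in limma voom and 9.3e-08 in DESeq2. Of the calls of edgeR on these lists, 0 to 1 were made with any 1 library left out, and that of FSTL3 was lost each time, with log2 fold changes of 1.03 to 1.19.

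**Figure D3:**
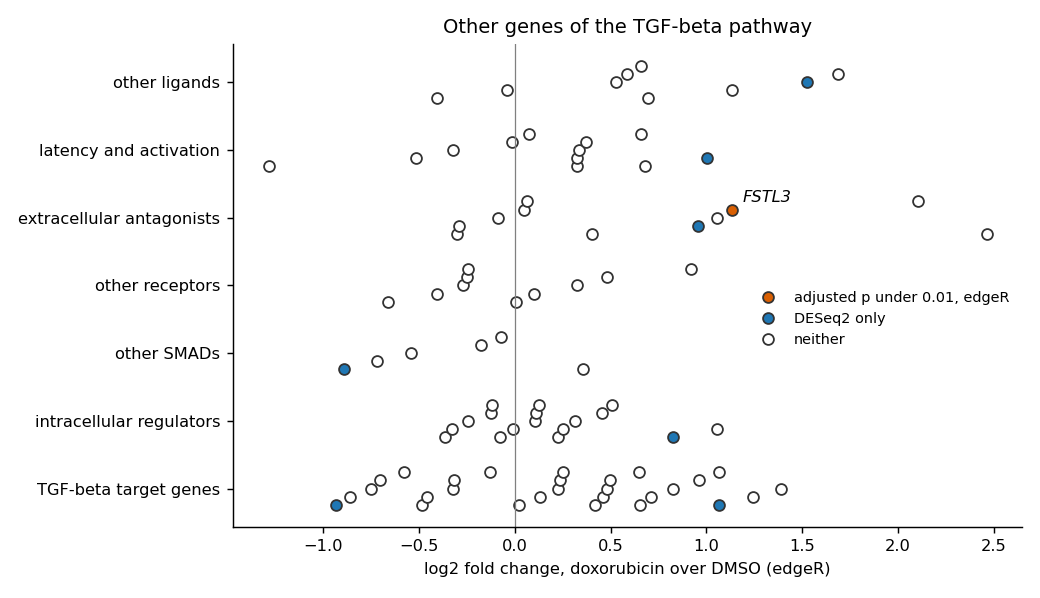
Log2 fold change, doxorubicin over DMSO (edgeR), of tested genes of the 7 other lists, 1 point per gene, offset vertically for legibility and coloured by the tool that called it at an adjusted p under 0.01. The orange point is FSTL3 at 1.13, the 7 blue points were called by DESeq2 alone, and the other SMADs lie mostly to the left of 0.

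Of 28 other ligand genes 9 were tested, 7 with positive and 2 with negative fold changes (median 0.66), and edgeR called none. BMP2, a bone morphogenetic protein that signals through other SMADs than TGF-β does, was at 1.07 and 1.80 CPM in DMSO and at 3.13, 4.62 and 4.66 CPM in doxorubicin. Its log2 fold change was 1.53 (SE 0.37), with an adjusted p of 0.0425 in edgeR and 0.00301 in DESeq2. BMP8A, another bone morphogenetic protein, had 6 counts in each DMSO library and 15 to 30 in doxorubicin (log2 fold change 1.69, edgeR adjusted p = 0.0579). Both were low throughout, and neither overlapped its controls.

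Among 13 genes of latency and activation 12 were tested, 8 positive and 4 negative (median 0.32), with no call by edgeR. THBS1, thrombospondin 1, which can release TGF-β from its latent complex, was abundant and the higher of the groups was doxorubicin, at 10181 ± 668 CPM (SD, n = 3) against 5084 ± 544 CPM (SD, n = 2). Its log2 fold change of 1.00 (SE 0.18) had an adjusted p of 0.0155 in edgeR and 1.49e-07 in DESeq2. NRROS, which anchors latent TGF-β on the cell surface, lay at 1.72 and 3.56 CPM in DMSO and between 0.998 and 1.16 CPM in doxorubicin (log2 fold change -1.28, edgeR adjusted p = 0.0806). Leaving out DMSO replicate 1 gave -1.72, and leaving out replicate 2 gave -0.68.

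Among 14 other receptor genes 10 were tested, 5 on each side of 0 (median -0.12), and neither edgeR nor DESeq2 called any at the threshold, with 2 at an unadjusted p under 0.05. BMPR1A, a type I receptor for bone morphogenetic proteins, had a log2 fold change of -0.41 and ACVR1C, a type I receptor also known as ALK7, one of 0.92, with edgeR adjusted p of 0.103 and 0.126. All 6 other SMAD genes were tested. In 5 all doxorubicin libraries lay below DMSO and in 1 above it, where 23.4% and 24.3% of all genes did. The median log2 fold change was -0.36, with no call by edgeR. SMAD2 and SMAD4, picked after their values were seen, were among those below DMSO by little. Their log2 fold changes were -0.07 and -0.18 (edgeR adjusted p of 0.755 and 0.434). SMAD1, which relays bone morphogenetic protein signals, was at 24.8 and 19.5 CPM in DMSO and at 12.4, 12.6 and 10.9 CPM in doxorubicin. Its log2 fold change was -0.89 (SE 0.19), with an adjusted p of 0.0267 in edgeR and 0.000752 in DESeq2. SMAD6, the other inhibitory SMAD, had a log2 fold change of -0.72 (edgeR adjusted p = 0.171).

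Of 16 genes of extracellular antagonists 11 were tested, 8 positive and 3 negative (median 0.40), and FSTL3 above was the 1 call of edgeR. GREM1 and FST were picked after their values were seen. GREM1, a bone morphogenetic protein antagonist, had a log2 fold change of 0.95 (edgeR adjusted p = 0.0193, DESeq2 2.37e-05). FST, follistatin, which like FSTL3 binds activin, was at 14.9 and 25.3 CPM in DMSO and at 50.9, 220 and 61.7 CPM in doxorubicin. One 0.2 μM library stood far above all others, and the log2 fold change of 2.46 (SE 0.70) had an adjusted p of 0.0643 in edgeR. Among 17 intracellular regulators, all tested, 10 were positive and 7 negative (median 0.11) with no call by edgeR. TGFBRAP1, a protein that associates with the receptors, had a log2 fold change of 0.83 (edgeR adjusted p = 0.0350, DESeq2 0.00274), and BAMBI, a decoy receptor, one of 1.05 (edgeR adjusted p = 0.129), which became 1.80 when DMSO replicate 1 was left out and 0.55 when replicate 2 was.

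Of 30 target genes known to respond to TGF-β in many cells 29 were tested, 19 positive and 10 negative (median 0.25). The signs were counted without regard to whether TGF-β raises or lowers a gene, so they give no direction of the pathway. Of these 29, edgeR called 1 higher and 0 lower, beside 1.29% and 2.73% of all genes. The doxorubicin libraries lay wholly above DMSO in 7 and wholly below in 4, beside 24.3% and 23.4% of all genes, and the groups overlapped in the other 18. BHLHE40 and LOX, also picked after their values were seen, were called by DESeq2 in opposite directions. BHLHE40, a transcriptional repressor, had a log2 fold change of 1.07 (edgeR adjusted p = 0.0179, DESeq2 3.32e-05), and LOX, an enzyme that crosslinks collagen, one of -0.93 (edgeR adjusted p = 0.0189, DESeq2 4.66e-05).

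The target genes also differed between replicates of a treatment. Of the 29 target genes 13 (44.8%) were over 2-fold higher in DMSO replicate 1 than in DMSO replicate 2 and 1 the other way, where 7.62% of all genes were over 2-fold higher in replicate 1. Between the replicates of 0.2 μM these were 8 (27.6%, against 5.85% of all genes), 7 of them the same genes, and 2 the other way. The median log2 difference of the list was 0.66 and 0.50 in the 2 pairs, and that of all genes -0.00673 and -0.0211. ACTA2, smooth muscle actin, was at 287 and 38.7 CPM in DMSO and at 382, 152 and 333 CPM in doxorubicin. TAGLN, transgelin of the contractile apparatus, was at 700 and 227 CPM in DMSO and at 1014, 302 and 962 CPM in doxorubicin. In both genes the 2 libraries numbered 2 were the lowest of their treatments, as they were for COL1A1 and TGFBI. TGFB2 shared this split in DMSO (2.64 on the log2 scale) and less of it in 0.2 μM (0.49), while INHBA went 0.66 one way in DMSO and -0.51 in 0.2 μM. The marker CDH5 split with the replicate number as well, in the opposite direction, and its part in this was not tested. PECAM1, the other endothelial marker, had only 3 and 6 counts in DMSO replicates 1 and 2. In those of 0.2 μM it had 7 and 11. ACTA2, TAGLN, TGFBI and COL1A1 were picked after their values were seen, these counts are descriptions of 4 libraries with no test, and whether the replicate numbers mark separate cultures, days or clones is not stated in the sources used here.

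**Figure D4:**
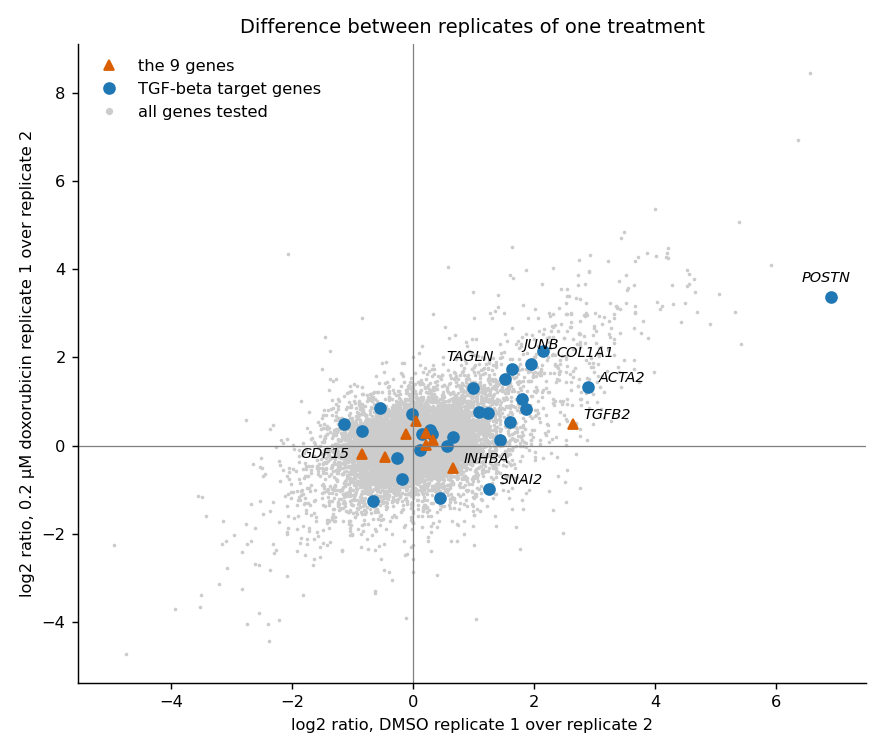
Each point is a gene, placed by the log2 ratio (log2 CPM, prior count of 2) of replicate 1 over replicate 2 in DMSO (horizontal) and in 0.2 μM doxorubicin (vertical), with the 9 genes as orange triangles, TGF-β target genes as blue circles and all genes tested in grey. Many target genes lie in the upper right, and TGFB2 lies at 2.64 and 0.49.

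To find genes with a like pattern, the Pearson correlation of log2 CPM over the 5 libraries was computed between each member and all tested genes whose mean log2 CPM was 3 or more. With 5 points that share the split between treatments, many genes come close: between 5 (SMAD3) and 396 (GDF15) genes had r above 0.95. The closest were TMEM106B and ZDHHC3 to TGFB1, FILIP1L and PLCB4 to TGFB2, SLC25A28 and DAXX to TGFB3, MEG3 and LINC00294 to INHBA, ZNF697 and VPS8 to GDF15, GSS and EDEM1 to TGFBR1, ZBED4 and SNRNP200 to TGFBR2, and IL11 and KCNMA1 to SMAD7, with r between 0.996 and 0.9996. For SMAD3 the closest was TSPAN3 (0.980).

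Some members share their locus with another gene. TGFB2 overlaps TGFB2-AS1, which had 2 to 23 counts per library, and TGFB2-OT1, which had none, and INHBA overlaps INHBA-AS1 (13 to 91 counts). The library kit keeps the strand, but whether the counting used it could not be learned from the sources used here, so reads of a gene and its antisense partner cannot be told apart. TGFB1, TGFB3 and SMAD7 overlap no annotated gene, GDF15 overlaps MIR3189, which had no counts, TGFBR1 overlaps RNA5SP290, TGFBR2 overlaps KLHL25P1 and LOC105377015, and SMAD3 overlaps SMAD3-AS1.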

How the data were processed

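RNA-seq counts of 5 RPE1 libraries were analysed. The authors mapped paired-end reads to hg38 (iGenomes) with STAR and deposited raw counts per gene from featureCounts of Rsubread, with versions and strand setting not given in the sources used here. A second deposited table of the authors' own DESeq2 comparison (means, log2 fold changes, standard errors, statistics and p-values) was not used. Counts were fitted in R 4.3.3 with edgeR 4.0.16 (quasi-likelihood test, TMM, no covariates). The filterByExpr function, at its minimum count of 10 and total of 15, left 14187 of 26485 genes. P-values were adjusted by the Benjamini-Hochberg method over all of these, with a threshold of 0.01. The 0.34 μM dose was compared with 0.2 μM in a fit of 3 conditions. DESeq2 1.42.0 and limma 3.58.1 (voom) were alternatives, beside the normalization, the filter, the threshold, single doses, each library left out and a replicate block. CPM and log2 CPM (prior count of 2) were computed from the counts, the total counts being 23773061 to 36725345 per library, and SE is the fold change over the square root of F. The code was tested on simulated data.

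The members and gene lists were chosen with earlier results of these data known. All members are named, and of each other list the genes past the threshold (at most 6) or else the 2 with the smallest p, the 2 genes most like each member, and 4 genes that check the treatment. Others are named as picked later. Some items that these rules select are not reported here, and the figures leave them out. Positions and promoters come from RefSeq (GRCh38.p14) and transcript lengths from GENCODE.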

Additional observations from a re-analysis of the deposited data

How the results depend on the processing

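Of the 9 genes, 0 were called higher in the main analysis and in 11 of 15 alternatives. INHBA and GDF15, 2 in all, were called with DESeq2, with no filter beyond 1 count, at a threshold of 0.05 and with a replicate block (INHBA 1.32, adjusted p = 0.00117, and GDF15 3.13, adjusted p = 0.00189, in edgeR). No member was called lower in any alternative, and none between the doses in 5. Of the other lists, the main analysis called 2 genes higher and 0 lower. The higher calls were 7 with DESeq2, 1 with library sizes alone, 5 with no filter beyond 1 count, 0 for 0.2 μM or 0.34 μM alone, 7 at 0.05, 9 with the replicate block and 0 to 1 with each library left out. The lower calls were 2 with DESeq2, 1 with no filter beyond 1 count, 2 at 0.05 and 1 with the replicate block. The sign of TGFB2 changed without DMSO replicate 2 (-0.19, against 2.46 without DMSO replicate 1), and that of SMAD3 without DMSO replicate 2 (-0.049, against 0.17 without replicate 1), for 0.2 μM alone (-0.012), without the 0.34 μM library (-0.0074) and with the replicate block (-0.0043), against 0.07 in the main analysis. The cause was not tested. Over all genes, the main analysis called 183 higher and 388 lower, DESeq2 916 and 1110 of all genes it fitted, the 0.05 threshold 866 and 1061, no filter beyond 1 count 404 and 616, 0.2 μM alone 39 and 132, 0.34 μM alone 22 and 67, the replicate block 580 and 669, and leaving out a library 2 to 71 and 47 to 183, the fewest without DMSO replicate 2. The genes fitted were 14187 in the main analysis, at the 0.05 threshold and for each dose alone. They were 26485 with DESeq2, 20717 with no filter beyond 1 count, 13891 with the replicate block and 13891 to 14646 with a library left out. Differences between replicates 1 and 2 correlated across genes between DMSO and 0.2 μM (r = 0.53). The labels give a number only to the second libraries and tie it to no shared culture or day, so the block is a description. The precision is limited by 2 DMSO libraries, 1 library at 0.34 μM and counts of TGFB3 and GDF15 under 100.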
